A study of Mus musculus with 8 samples.

Results

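Store-operated calcium entry is the route by which a cell that has emptied the calcium store of its endoplasmic reticulum (ER) draws calcium in from outside. The 10 genes described here encode its core machinery in the mouse, namely the ER calcium sensors (Stim1, Stim2), the pore subunits of the plasma membrane channel (Orai1, Orai2, Orai3), the inositol 1,4,5-trisphosphate (IP3) receptors that release calcium from the ER (Itpr1, Itpr2, Itpr3) and the SERCA pumps that refill it (Atp2a2, Atp2a3). They were taken by gene symbol from a table of 54532 genes, in which each of the 10 symbols had 1 row. All 10 passed the filter on low counts, as 16440 genes did.

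The table came from RNA sequencing of first molar enamel organs of C57BL/6 wild type (wt) pups, which had received no treatment, at postnatal day 5 (P5, secretory stage) and day 12 (P12, maturation stage). Enamel organs are the epithelial tissue that builds enamel. There were 4 libraries at P5 (replicates 1, 3, 4 and 5) and 4 at P12 (replicates 1 to 4), each from the pooled tissue of 5 pups, so that differences between single animals were averaged within a library. Molars were homogenized after pulp tissue had been taken out, so RNA of any other cell left on the tooth was measured too.

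Ameloblasts, which are among the epithelial cells of the enamel organ, first secrete a protein matrix. In maturation they then remove it while calcium and phosphate ions are moved into the hardening enamel. When IP3 opens its receptors and the ER empties, STIM proteins sense the fall, gather beneath the plasma membrane and open ORAI channels, and SERCA pumps return the calcium to the ER. Inherited loss of STIM1 or ORAI1 function in people is known for poorly mineralized enamel beside immune deficiency.

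Between P5 and P12 the IP3 receptors changed most. Itpr1 fell 8.68-fold and Itpr2 rose 6.23-fold, while Itpr3, the most abundant receptor per length at both ages, did not pass the test. Orai1 (2.97-fold), Stim1 (2.39-fold) and Orai2 (2.06-fold) rose, and Orai3 did not pass the test. Atp2a3 (2.01-fold) and Stim2 (1.48-fold) rose as well, and Atp2a2 passed the threshold narrowly, and not without P12 replicate 4. These changes were tested with edgeR's quasi-likelihood test, with p-values adjusted by the Benjamini-Hochberg method over all 16440 genes tested and called at 0.05. By that rule 8 of the 10 genes differed, where 57.2% of all genes tested did. Higher at P12 were 7 of the 10, against 28.8% of all genes, and lower was 1, against 28.4%. Of the 7, 5 rose by at least 1 on the log2 scale, which 11.3% of all genes did. In log2 fold change the 10 genes had a median of 0.81, where the genes tested had one of 0.01. In 6 of the 10, no P12 library lay within the range of the P5 libraries or the reverse, which was so for 52.5% of all genes. For each of these 6 the two-sided exact permutation test over the 4 and 4 libraries gave p = 0.0286, the smallest it can give.

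**Figure D1:**
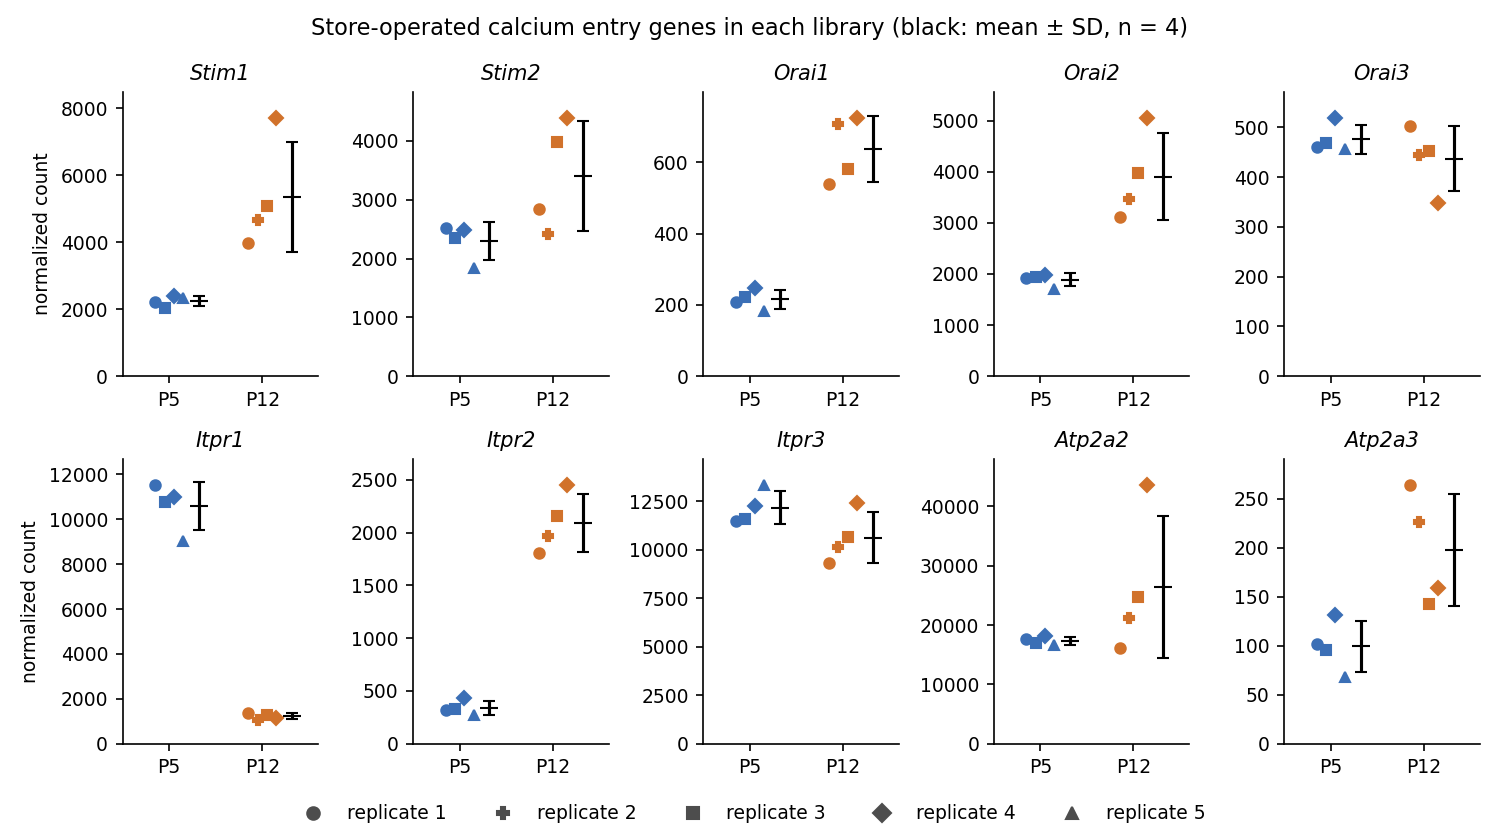
Normalized counts (y axes, linear and from 0, a different scale for each gene) of the 10 store-operated calcium entry genes in the 4 libraries at P5 (blue) and the 4 at P12 (orange), with symbols for the replicates and black bars for the mean ± SD. The P5 and P12 points are apart for Stim1, Orai1, Orai2, Itpr1, Itpr2 and Atp2a3, and the P12 points of Atp2a2 reach from 16105 to 43541.

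Total counts ran from 16574548 to 20262601 in the P5 libraries and from 17588152 to 22013456 in those of P12. The 20 genes with the most counts held 34.08% to 35.71% of them at P5 but 16.8% to 18.97% at P12. Scaling by total count instead of by TMM therefore shifted all genes, their median log2 fold change moving from 0.01 to 0.38. Under TMM, 4735 genes were higher and 4676 lower, and under total count scaling 8877 were higher and 2330 lower. Normalized counts are counts divided by the TMM-scaled library size and multiplied by its mean over the libraries. P12 replicate 4 stood apart, with a chi-square per degree of freedom of 31.63 to 74.55 against the other P12 libraries, which differed among themselves by 8.58 to 18.89. It was the highest P12 library for 7 of the 10 genes and for 33.4% of all genes tested, and P5 replicate 5 was the lowest P5 library for 8 of the 10 and for 30% of all genes. The same libraries were at the ends of the maturation markers, whose sum was 12681 in P5 replicate 5 against 36597 to 43951 in the other P5 libraries, and 477588 in P12 replicate 4 against 354258 to 454612. The secretory ameloblast markers ran the same way, with their lowest P5 sum in replicate 5. Their highest P12 sum was in replicate 4 (621683 against 237041 to 433633). The part of stage in the members' values was not tested. Without P12 replicate 4, 6 of the 10 genes were higher and 2 lower, and without both of those libraries the counts were again 6 and 2. The stage markers went with the labels. All 4 secretory ameloblast markers (Amelx, Ambn, Enam, Mmp20) were lower at P12 and all 4 maturation markers (Klk4, Amtn, Odam, Slc24a4) were higher. The labels call the cells epithelially derived, yet the odontoblast gene Dspp was at 158556 ± 23095 normalized counts at P5 and 167051 ± 12929 at P12 (SD, n = 4), and Col1a1, a collagen of bone, dentin and connective tissue, at 620261 ± 60095 and 488824 ± 49214. Of 4 markers of dental and oral epithelium 3 were higher and 1 lower. Markers of that epithelium, oral mucosa, osteoclasts, leukocytes, T and B cells, platelets, endothelium and smooth muscle had higher summed counts in every P12 library than in any P5 library, those of skeletal muscle lower ones, and those of mesenchyme, odontoblasts and red blood cells overlapped between the ages. Their part in the results below was not tested.

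The sequence before each gene's start was read from RefSeq (GRCm38.p6) for 8 of the 10 genes, which leaves out Itpr1 and Atp2a2. No link between this sequence and the change of a gene was tested. The windows of the 3 ORAI genes and of Itpr2, which differ in composition, are shown. They were chosen with the changes of these genes known. Each window is the 250 bases ahead of RefSeq's start of the gene, 5′ to 3′ on its strand, at chr5:123014824-123015073 (Orai1, plus strand), chr5:136170657-136170906 (Orai2, minus strand), chr7:127769565-127769814 (Orai3, plus strand) and chr6:146502224-146502473 (Itpr2, minus strand). Capitals mark the GC box (GGGCGG), the CCAAT box (CCAAT) and the E-box (CACGTG), each searched on both strands.
Orai1: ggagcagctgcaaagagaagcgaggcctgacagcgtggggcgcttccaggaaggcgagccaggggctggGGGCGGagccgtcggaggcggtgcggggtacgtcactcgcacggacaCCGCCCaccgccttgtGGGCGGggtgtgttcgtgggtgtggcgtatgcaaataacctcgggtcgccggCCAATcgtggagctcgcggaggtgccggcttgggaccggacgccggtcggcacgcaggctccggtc
Orai2: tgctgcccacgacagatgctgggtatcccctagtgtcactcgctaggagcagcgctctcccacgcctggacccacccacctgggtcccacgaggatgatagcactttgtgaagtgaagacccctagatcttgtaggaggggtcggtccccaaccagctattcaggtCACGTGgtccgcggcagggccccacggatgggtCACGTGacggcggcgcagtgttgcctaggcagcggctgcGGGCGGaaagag
Orai3: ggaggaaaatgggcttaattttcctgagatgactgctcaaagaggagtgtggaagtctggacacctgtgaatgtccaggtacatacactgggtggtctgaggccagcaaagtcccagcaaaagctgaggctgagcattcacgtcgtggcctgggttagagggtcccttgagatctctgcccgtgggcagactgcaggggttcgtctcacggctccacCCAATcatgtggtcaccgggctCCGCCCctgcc
Itpr2: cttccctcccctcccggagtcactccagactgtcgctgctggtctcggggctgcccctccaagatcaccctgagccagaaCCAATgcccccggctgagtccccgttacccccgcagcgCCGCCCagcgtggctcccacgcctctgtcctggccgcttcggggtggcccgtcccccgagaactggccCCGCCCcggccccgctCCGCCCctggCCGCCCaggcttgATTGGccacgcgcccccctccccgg
Orai1 had 3 GC boxes and 1 CCAAT box in this window. Orai2 had 2 E-boxes and 1 GC box, and 0.429% of the 32851 windows in the RefSeq table had 2 or more E-boxes, while 6.02% had at least 1. RefSeq starts Orai2 further downstream than the count table does, so that the last 57 bases of its window, with 1 E-box and the GC box, lie inside the gene as the count table places it. Orai3 had 1 GC box and 1 CCAAT box, and Itpr2 had 4 GC boxes and 2 CCAAT boxes. A GC box was found in 32.7% of all windows and a CCAAT box in 33.8%. Orai1 held 30 CpG dinucleotides, Itpr2 22, Orai2 17 and Orai3 7, where the median of all windows was 6. Stim1 (31), Stim2 (30), Itpr3 (25) and Atp2a3 (20) lay above that median too, so that of the 8 windows the one of Orai3 held the fewest CpG. The TATA box (TATAAA) occurred in 12.4% of all windows and in 0 of the 8. The letters GGAAA, the core bound by NFAT, the transcription factor that calcineurin activates, occurred once in the Orai2 window and 2 times in that of Orai3, and in 55.6% of all windows. These are matches of letters and not binding sites that were measured.

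STIM1 is the ER sensor whose clustering opens ORAI channels when the store is emptied, and its gene lies at chr7:102267806-102437319 (plus strand; GRCm38, the build whose coordinates the table carries). Stim1 was read at 2201, 2038, 2386 and 2337 normalized counts in P5 replicates 1, 3, 4 and 5, and at 3980, 4659, 5070 and 7713 in P12 replicates 1 to 4. Every P12 library was above every P5 library, and P12 replicate 4 was the highest by far. The mean of 2240 ± 156 at P5 rose to 5356 ± 1634 (SD, n = 4 at each age), which is 1.26 on the log2 scale (SE 0.17, edgeR adjusted p = 7.9e-05). Without P12 replicate 4 the log2 fold change of Stim1 was 1.02, the lowest of the fits that left out 1 library.

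STIM2, which responds to smaller falls in the ER store than STIM1, is encoded at chr5:53998499-54121057 (plus strand). Stim2 stood at 2516, 2343, 2494 and 1840 normalized counts at P5 and at 2837, 2414, 3975 and 4393 at P12. P12 replicate 2 lay within the P5 range, and P12 replicates 3 and 4 were well above it. The mean rose from 2298 ± 315 to 3405 ± 932 (log2 fold change 0.57, SE 0.18, edgeR adjusted p = 0.016). The exact permutation test for Stim2 gave p = 0.0857, and the call was lost without P5 replicate 5 (0.47, edgeR adjusted p = 0.053) or without P12 replicate 3 (0.49, adjusted p = 0.051).

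Set against each other within a library, Stim1 gained on Stim2. The log2 ratio of their counts was -0.03 ± 0.26 at P5 and 0.65 ± 0.28 at P12 (SD, n = 4), a difference of 0.68 with no overlap between the ages (exact permutation p = 0.0286, 0.0367 after adjustment over the 9 ratios tested). Per kilobase of deposited gene length, Stim1 made up 32.8% ± 4.0 of the STIM sum at P5 and 43.8% ± 4.7 at P12. On that measure Stim2 stayed the larger of the pair in every library. By counts alone Stim1 was the larger in every P12 library.

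ORAI1 is the principal pore subunit of the calcium release-activated channel. Its gene at chr5:123015074-123030456 (plus strand) was read at 208.3, 222.5, 247.8 and 182.1 normalized counts in the P5 libraries and at 539.6, 707.9, 580.1 and 724.9 in the P12 libraries. The lowest P12 library was still well above the highest P5 library. Orai1 rose from 215 ± 27.5 to 638 ± 92.2, a log2 fold change of 1.57 (SE 0.12, edgeR adjusted p = 1.2e-06), the largest among the STIM and ORAI genes, and it stayed between 1.49 and 1.64 when any 1 library was left out.

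ORAI2, a pore subunit that can join ORAI1 in mixed channels, is encoded at chr5:136147459-136170713 (minus strand). Orai2 had 1927, 1937, 1988 and 1700 normalized counts at P5 and 3108, 3457, 3976 and 5053 at P12. The ages did not overlap, and P12 replicate 4 was again the highest (0.89 on the log2 scale without it). The mean rose from 1888 ± 128 to 3899 ± 848 (log2 fold change 1.05, SE 0.13, edgeR adjusted p = 4.4e-05).

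ORAI3, the subunit found in mammals alone, is encoded at chr7:127769815-127775150 (plus strand). Orai3 had 460.2, 468.4, 519.4 and 456.2 normalized counts at P5 and 503.7, 443.8, 453.1 and 347.4 at P12. P12 replicate 1 lay inside the P5 range and the other P12 libraries just or clearly below it. Its means were 476 ± 29.3 and 437 ± 65.3 (log2 fold change -0.12, SE 0.11, edgeR adjusted p = 0.36; exact permutation p = 0.314), and under total count scaling the sign turned (0.26, adjusted p = 0.084).

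Since a ratio of genes in the same library is free of the scaling between libraries, the ORAI genes were also compared pairwise. The log2 ratio of Orai1 to Orai3 was -1.15 ± 0.12 at P5 and 0.55 ± 0.41 at P12, a difference of 1.69. Orai2 to Orai3 went from 1.98 ± 0.08 to 3.14 ± 0.52 (difference 1.16), and Orai1 to Orai2 from -3.13 ± 0.10 to -2.60 ± 0.24 (difference 0.54). In all 3 ratios the P5 and P12 libraries were apart, each with an exact permutation p of 0.0286 and 0.0367 after adjustment. Per kilobase, Orai2 gave the largest ORAI share in every library, 49.6% ± 1.2 at P5 and 56.6% ± 5.4 at P12. Orai3 dropped from 35.5% ± 1.3 to 18.6% ± 4.7, and Orai1 went from 14.9% ± 0.89 to 24.8% ± 2.5. Within the ORAI sum, Orai3 thus came second at P5 in every library, and Orai1 was above it at P12 in 3 of 4 libraries.

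**Figure D2:**
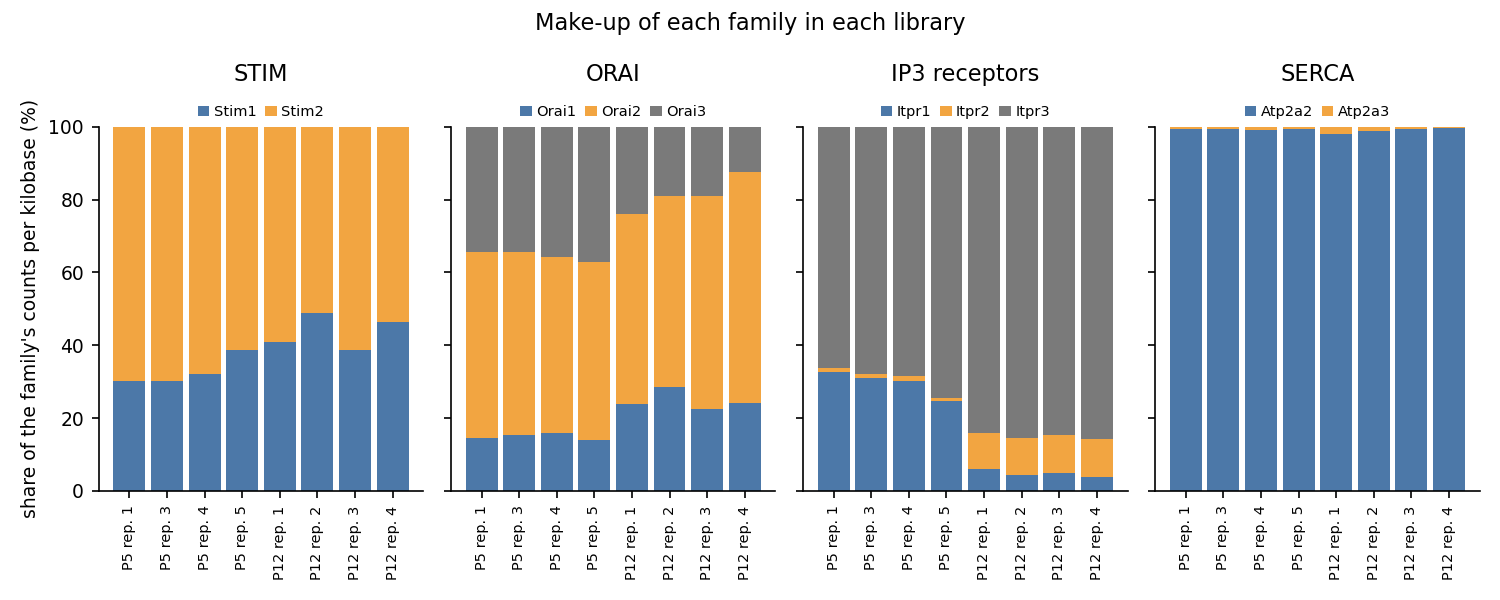
Share of each gene in its family's sum of normalized counts per kilobase (y axis, percent) as stacked bars, 1 bar for each of the 8 libraries, for the STIM, ORAI, ITPR and SERCA families. The mean Itpr1 share falls from 29.6% to 4.85% and the Orai3 share from 35.5% to 18.6%, while Itpr3, Orai2, Stim2 and Atp2a2 hold the largest share of their families at both ages.

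IP3 receptors are the ER channels whose opening empties the store. The largest change of all 10 genes was in Itpr1, at chr6:108213096-108551109 (plus strand), which encodes the receptor best known from cerebellar Purkinje neurons. Itpr1 had 11515, 10778, 11003 and 9037 normalized counts in P5 replicates 1, 3, 4 and 5, and 1371, 1054, 1294 and 1157 in P12 replicates 1 to 4. All P12 libraries sat in a narrow band far below the P5 libraries, and P12 replicate 4 did not stand out. The mean fell from 10583 ± 1076 to 1219 ± 141, a log2 fold change of -3.12 (SE 0.11, edgeR adjusted p = 2.5e-09), and 1.49% of all genes tested had a lower value. In rank of mean normalized count over the genes tested, Itpr1 went from 133 to 3027. In whole tissue, fewer cells of a type and less RNA per cell cannot be told apart. Of a marker list for nerve tissue 2 genes are given. The neuronal genes Tubb3 (1700 ± 317 at P5 and 529 ± 37.5 at P12, log2 fold change -1.68) and Snap25 (279 ± 46.9 and 158 ± 121, edgeR adjusted p = 0.10) were lower and not past the test, respectively. The 4 secretory ameloblast markers, which also fell, had a P12 sum between 237041 (replicate 1) and 621683 (replicate 4), and Itpr1 at P12 was highest in replicate 1. At P5 both were lowest in replicate 5, while the marker sum was highest in replicate 4 and Itpr1 in replicate 1. The part of neurons or of secretory ameloblasts in the fall of Itpr1 was not tested.

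ITPR2, a receptor of high IP3 affinity that is prominent in secretory gland cells and heart muscle, is encoded at chr6:146108299-146502223 (minus strand). Itpr2 had 318.8, 325.3, 431.1 and 272 normalized counts in the P5 libraries, and in the P12 libraries 1803, 1970, 2153 and 2447. Each P12 library was several times above each P5 library. The mean rose from 337 ± 67.2 to 2093 ± 276 (log2 fold change 2.64, SE 0.14, edgeR adjusted p = 4.9e-08), and 97.8% of all genes had a lower value. Its rank of mean normalized count went from 7756 to 1498. At P12 Itpr2 was highest in replicate 4, the P12 library with the lowest sums of oral mucosa, osteoclast, leukocyte and T and B cell markers. That library also had the highest P12 sum of endothelial markers, 4324 against 4061 to 4249. The same held for smooth muscle and pericyte markers, 7061 against 6078 to 6505. At P5 the sums of both lists were highest in replicate 5 (2532 and 2739), where Itpr2 was lowest. Maturation ameloblast markers also had their highest P12 sum in replicate 4, 477588 against 354258 to 454612. Their P5 sum was lowest in replicate 5, as Itpr2 was, but highest in replicate 1, where Itpr2 was not. Beside the 6.23-fold rise of Itpr2, the median fold of the tested markers was 1.80 for endothelium, 2.01 for smooth muscle and pericytes, 4.28 for osteoclasts and 68.7 for oral mucosa. For maturation ameloblasts it was 10.1. The part of these cells in the rise of Itpr2 was not tested.

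ITPR3, the receptor typical of epithelia, is encoded at chr17:27057304-27122223 (plus strand). Itpr3 had 11494, 11608, 12284 and 13330 normalized counts at P5 and 9327, 10155, 10654 and 12413 at P12. The highest P12 library, replicate 4, reached into the P5 range and the other 3 lay below it. The means were 12179 ± 843 and 10637 ± 1305 (log2 fold change -0.20, SE 0.10, edgeR adjusted p = 0.10; exact permutation p = 0.114). Without P12 replicate 4 Itpr3 passed the test as lower (-0.28, adjusted p = 0.0053), and under total count scaling its sign turned (0.17, adjusted p = 0.087).

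The exchange among the receptors was plainest as a ratio. The log2 ratio of Itpr1 to Itpr2 was 5.17, 5.05, 4.67 and 5.05 in the P5 libraries and -0.39, -0.90, -0.73 and -1.08 in the P12 libraries. Itpr1 was thus above Itpr2 in every P5 library and below it in every P12 library, a shift of -5.76 or 54.2-fold. Itpr1 to Itpr3 moved by -2.92 and Itpr2 to Itpr3 by 2.84. By counts, not divided by length, Itpr1 was close to Itpr3 at P5, with a log2 ratio of -0.21 ± 0.25. All 3 ratios had an exact permutation p of 0.0286, or 0.0367 after adjustment. Per kilobase, Itpr3 supplied 69.2% ± 3.5 of the ITPR sum at P5 and 85.0% ± 0.82 at P12, Itpr1 29.6% ± 3.4 and 4.85% ± 0.93, and Itpr2 1.16% ± 0.22 and 10.15% ± 0.22. The ITPR sum itself was lower in each P12 library than in any at P5, with means of 1955 and 1391 normalized counts per kilobase.

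**Figure D3:**
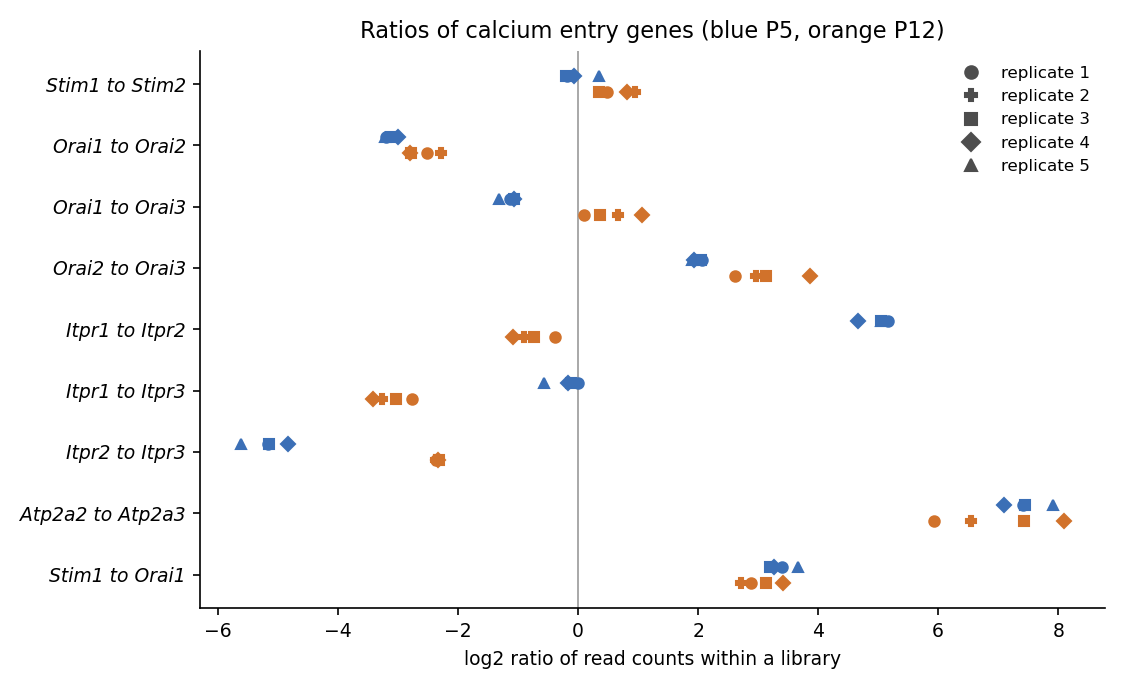
Log2 ratios of member genes within each library (x axis; symbols for replicates, P5 blue and P12 orange). On average Itpr1 to Itpr2 moves furthest, from 4.98 at P5 to -0.78 at P12, and the points of Atp2a2 to Atp2a3 and of Stim1 to Orai1 overlap between the ages.

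SERCA pumps move calcium from the cytosol into the ER. SERCA2, the form found in most cells, comes from Atp2a2 at chr5:122453513-122502225 (minus strand). Atp2a2 had 17608, 17049, 18086 and 16628 normalized counts at P5 and 16105, 21251, 24798 and 43541 at P12. The P5 libraries lay close together, while at P12 replicate 1 was below all of them and replicate 4 far above every other library. The means were 17343 ± 638 and 26424 ± 11957, so that the coefficient of variation went from 3.68% to 45.3%. The log2 fold change of 0.61 (SE 0.24) had an edgeR adjusted p of 0.049 and an exact permutation p of 0.143. Without P12 replicate 4 it was 0.25 (edgeR adjusted p = 0.075), and 11 of 18 other fits lost the call. Muscle fibers are rich in SERCA, and in P12 replicate 4 the 4 skeletal muscle markers summed to 330 normalized counts, inside the 312 to 385 of the other P12 libraries. What set that library's Atp2a2 apart, the part of muscle included, was not tested.

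SERCA3, known from platelets, lymphocytes, endothelium and some epithelia, comes from Atp2a3 at chr11:72961169-72993044 (plus strand). Atp2a3 was the lowest of the 10, with 101.6, 96.15, 131.8 and 67.74 normalized counts at P5 and 263.9, 226.1, 142.7 and 158.6 at P12. The lowest P12 library was just above the highest P5 library. The mean rose from 99.3 ± 26.3 to 198 ± 57 (log2 fold change 1.01, SE 0.24, edgeR adjusted p = 0.0036). Unlike the other rising genes, it was highest at P12 in replicates 1 and 2. The 4 T and B cell markers, of which Cd79a was at 45.1 ± 21.6 and 137 ± 61.6, had sums of 361, 330, 169 and 147 in P12 replicates 1 to 4 and of 143, 97.3, 89.6 and 42.3 in P5 replicates 1, 3, 4 and 5. Their sums were likewise highest in P12 replicates 1 and 2 and lowest at P5 in replicate 5, as Atp2a3 was. At P5, however, Atp2a3 was highest in replicate 4 and these sums in replicate 1. The sums of platelet, leukocyte and oral mucosa markers were also highest in P12 replicates 1 and 2 and lowest at P5 in replicate 5. The 4 platelet markers summed to 166 to 292 at P5 and 313 to 386 at P12, and the 4 endothelial markers to 2107 to 2532 and 4061 to 4324. The part of these cells in the rise of Atp2a3 was not tested. The ratio of Atp2a2 to Atp2a3 overlapped between the ages (exact permutation p = 0.457).

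**Figure D4:**
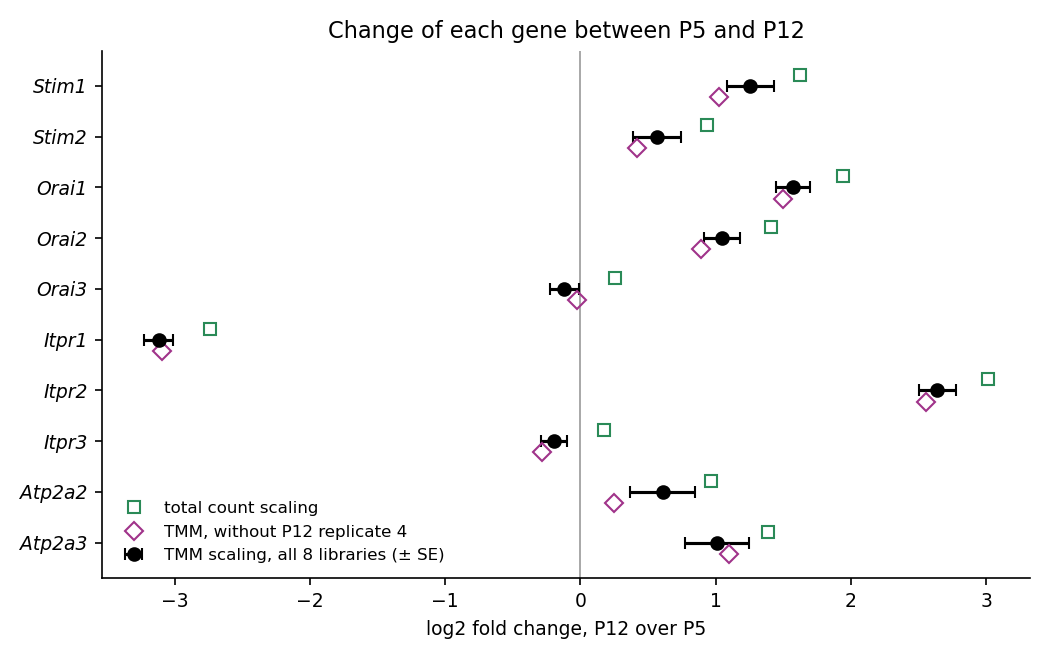
Log2 fold change of each member gene from P5 to P12 (x axis): filled circles with bars for the edgeR fit ± SE under TMM, open diamonds without P12 replicate 4 and open squares under total count scaling. Itpr1 lies at -3.12 and Itpr2 at 2.64, Orai3 and Itpr3 lie near 0 and turn sign under total count scaling, and the other 6 lie between 0.57 and 1.57 under TMM.

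By level per kilobase, the order of the genes changed in the middle and held at the top. At P5 the order of mean normalized counts per kilobase was Atp2a2 (2852), Itpr3 (1355), Itpr1 (578), Stim2 (448), Orai2 (311), Orai3 (222), Stim1 (216), Orai1 (93.7), Itpr2 (22.8) and Atp2a3 (18.8). The ranges over libraries of Orai3 and Stim1 overlapped, as did those of Itpr2 and Atp2a3, and all other neighbours at P5 were apart. At P12 it was Atp2a2 (4345), Itpr3 (1183), Stim2 (663), Orai2 (642), Stim1 (516), Orai1 (278), Orai3 (204), Itpr2 (141), Itpr1 (66.5) and Atp2a3 (37.5). Stim2, Orai2 and Stim1 overlapped in turn there, and so did Orai1, Orai3 and Itpr2. Itpr1 went from the third place to the ninth. The STIM sum (664 to 1180) and the ORAI sum (627 to 1124) were higher in every P12 library than at P5, and the SERCA sum (2871 to 4383) overlapped. Between the sensor and its channel, the log2 ratio of Stim1 to Orai1 was 3.38 ± 0.21 at P5 and 3.03 ± 0.30 at P12 (exact permutation p = 0.143, 0.161 after adjustment), and the groups overlapped. Reads from overlapping genes could add little, since no member gene shared more than 2.6% of its exonic bases (Itpr3) and the overlapping genes had at most 56 counts in a library.

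The other genes of the pathway were read from 7 lists of 98 genes, of which 91 were tested. Higher at P12 were 33 (36.3%), lower 30 (33.0%), and 28 did not pass the test, where 28.8% of all genes were higher and 28.4% lower. The median log2 fold change of the 91 was 0.09. These shares of all genes stand beside the list counts below too. Of 15 modulators of store-operated entry, 6 rose and 2 fell. Saraf, which shuts off STIM, had the highest level of these (2839 ± 178 to 3692 ± 246, log2 fold change 0.38, edgeR adjusted p = 0.00077). Cracr2b, a relative of the cytosolic ORAI1 partner CRACR2A, rose by 0.92, as did Cav1 (caveolin-1) by 0.98, and both had no overlap. Trpc1, a cation channel linked to store depletion, fell by 1.06 on the log2 scale, and the Golgi SNARE gene Stx5a fell by 0.94.

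Upstream, among genes for IP3 production and for partners of its receptors, 10 of 20 rose and 5 fell. The phospholipases C that make IP3 went different ways. Plcg1, the form that receptor tyrosine kinases activate, fell from 4828 ± 378 to 2046 ± 24.4 normalized counts (log2 fold change -1.24, edgeR adjusted p = 6e-08), and Plcd3 fell by 1.48 on that scale. Plcg2, the form of blood cells, rose by 1.46, from 84.1 ± 28.6 to 229 ± 62.9. Like Atp2a3 it was highest in P12 replicates 1 and 2 (299.9 and 264.9), as was Lrmp (201.6 and 173), a lymphocyte gene whose protein binds IP3 receptors and which rose by 1.18. Ahcyl2, a relative of the IP3 receptor inhibitor IRBIT, was the most abundant of this list and rose by 0.65 (6352 ± 145 to 9956 ± 2559), with its highest value, 13485, in P12 replicate 4.

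Of the other ER calcium channels and SERCA regulators, 0 of 8 tested rose and 4 fell at an edgeR adjusted p of 0.05, where 28.4% of all genes were lower, namely the 3 ryanodine receptor genes and the SERCA inhibitor Sln. Ryr3, the most abundant of the ryanodine receptors, fell from 168 ± 37.8 to 49.1 ± 11.5 (log2 fold change -1.78). Ryr1 and Sln, both genes of skeletal muscle, had means of 53.9 and 25.3 normalized counts at P5 and of 19.5 and 8.96 at P12. All 4 skeletal muscle markers (Ckm, Acta1, Myl1, Mylpf) fell as well, with a median log2 fold change of -1.29. Of these, Ckm overlapped between the ages. The SERCA gene Atp2a1 of this list was not called (37.2 ± 8.9 at P5 and 28.7 ± 5.7 at P12, edgeR adjusted p = 0.23). The part of muscle in the falls of this list was not tested. Pln, Mrln and Gm34302 (Strit1), which encode small regulators of SERCA, were too low to test, and Gm34302 was at 0 in all libraries. Among 12 luminal calcium buffers and chaperones, 4 rose and 7 fell. Calr (calreticulin) was the most abundant of them and rose by 0.38 on the log2 scale (9639 ± 727 to 12522 ± 932), and Rcn3 fell by 0.81.

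Among genes for calcium extrusion and for Golgi calcium pumps, taken as 1 list, 2 of 13 tested genes rose and 6 fell. The K+-dependent Na+/Ca2+ exchanger genes moved in opposite directions, with Slc24a4 rising from 1492 ± 825 to 16366 ± 4916 (log2 fold change 3.46, edgeR adjusted p = 7.1e-05) and Slc24a3 falling from 3262 ± 207 to 325 ± 59.3 (log2 fold change -3.33, adjusted p = 2.5e-09). Slc24a2 fell by 2.30 on the log2 scale. Atp2b1, the main plasma membrane calcium pump here, fell from 13829 ± 1229 to 7077 ± 592 (log2 fold change -0.97). Among genes listed for mitochondrial calcium handling, inhibitory and exchanger genes included, 6 of 9 rose and 1 fell. Mcub, the dominant-negative subunit of the uniporter, went from 85.4 ± 19.4 to 646 ± 79.6 (log2 fold change 2.93, edgeR adjusted p = 6e-08), while Mcu, its pore subunit, rose by 0.76 and the exchanger gene Slc8b1 by 1.12. Vdac1, the channel of the outer membrane, rose by 0.58, and Micu3 fell by 0.65.

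Downstream, 5 of 14 calcineurin and NFAT genes were higher and 5 lower, where 28.8% of all genes were higher and 28.4% lower. Nfatc2 rose by 2.04 (81.0 ± 18.1 to 332 ± 30.0), Nfatc1 by 1.15 and Camk2d by 1.05 on the log2 scale. Nfatc1 is also a master gene of osteoclasts. The 4 osteoclast markers had summed counts of 1032 to 1683 at P5 and 3148 to 7854 at P12. At P12 the marker sum and Nfatc1 were both lowest in replicate 4. At P5, however, replicate 4 had the highest marker sum and the lowest Nfatc1 value. The part of osteoclasts in the rise of Nfatc1 was not tested. Rcan1, a feedback inhibitor of calcineurin that its activity induces, was at 3495 ± 1855 at P5 and 6684 ± 1437 at P12 and did not pass the test (edgeR adjusted p = 0.053), and Rcan3 fell from 1826 ± 78.9 to 911 ± 71.0.

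**Figure D5:**
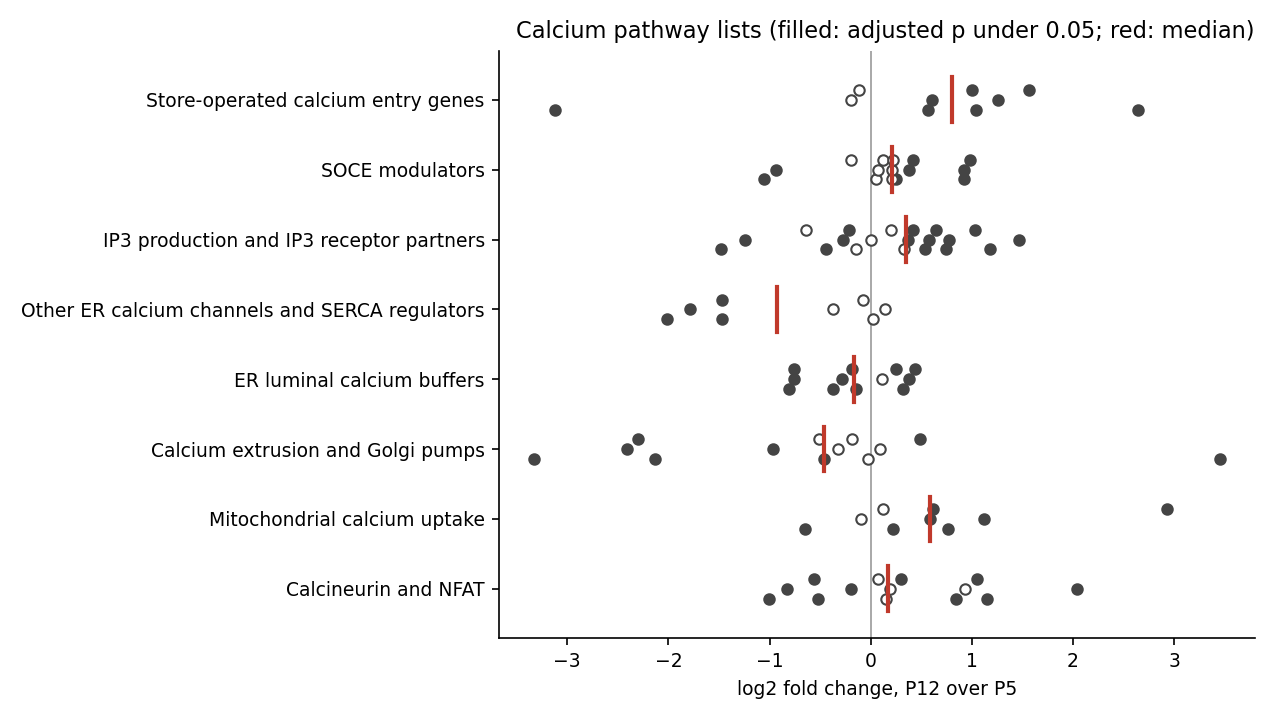
Log2 fold changes from P5 to P12 (x axis) of the tested genes in each pathway list and in the 10 member genes, 1 circle a gene, filled where the edgeR adjusted p was under 0.05, with red bars for the medians. The list of other ER channels and SERCA regulators has 0 genes that rose among 8, and the members have 7 that rose among 10.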

How the data were processed

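First molar enamel organs were sequenced after polyA capture, with 4 libraries at P5 and 4 at P12, each from 5 pooled pups. The authors deposited raw read counts per gene, with no normalization, beside gene names, coordinates and lengths. CASAVA and mm39 are named in the submitters' processing notes. The aligner, the counting program and its use of strand are not given in the sources used here. Of 54532 gene identifiers, 53585 have the same start and end in GENCODE M21 (GRCm38), as all 10 member genes do, so coordinates are given as GRCm38. Per-kilobase levels use the deposited gene lengths. For the members these equal all exonic bases annotated in GENCODE M21, or nearly so for Itpr3 (8990 against 9019). Lengths of the transcripts expressed here were not measured, and the order of different genes per kilobase depends on the lengths used.

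Counts were tested with edgeR 4.0.16 (filterByExpr, TMM, glmQLFit, glmQLFTest, no covariate) in R 4.3.3 over 16440 genes. DESeq2 1.42.0 and limma-voom (limma 3.58.1), other scalings, filters and thresholds and each library left out were alternatives. The scripts were tested on simulated data. Ratios used counts with a pseudocount of 1 and exact permutation tests over 70 splits (scipy 1.17.1), with Benjamini-Hochberg adjustment over 9 ratios. The 4 P12 replicates and 4 P5 replicates are separate pools, and no pair of libraries agreed within counting noise.

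The members, the 7 pathway lists and the 15 marker lists were chosen with earlier results of these data known. Of each pathway list the text names up to 4 genes with the largest change among those called with a mean of at least 100 normalized counts, and the most abundant gene. The ryanodine receptor genes as a group, Atp2a1, Sln, Pln, Mrln and Gm34302 were named after their values were seen. Itprip was not analysed here, and the summed counts of 1 marker list are not reported here. Symbols were matched through RefSeq synonyms.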

Additional observations from a re-analysis of the deposited data

Results flagged for a closer look

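Each named gene and each ratio was examined in the 4 libraries of each age for a single library far from the other 3. Of 122 groups of 4 examined, 2 held such a library, where chance alone gives 6.1. Cracr2b was at 102.9 normalized counts in P5 replicate 3, with the other P5 libraries between 79.7 and 83.62. Tmbim6, an ER membrane protein that leaks calcium and the most abundant of the other ER channels, was at 6112 in P12 replicate 4, with the other P12 libraries between 5566 and 5653. None of the 10 store-operated calcium entry genes met this rule, although P12 replicate 4 was the highest P12 library for 7 of them.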

How the results depend on the processing

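Stim1, Orai1, Orai2, Itpr1, Itpr2 and Atp2a3 kept their direction and their call in all 18 other fits. Scaling by total count gave 8877 genes higher and 2330 lower at P12, and a minimum absolute log2 fold change of 1 gave 3541 changed genes, 1864 higher and 1677 lower. Orai3 (0.26) and Itpr3 (0.17) turned sign under total count scaling. Itpr3 was called lower without both P5 replicate 5 and P12 replicate 4 (-0.23), and leaving out 1 library gave it -0.28 to -0.14. For Stim2 that range was 0.42 to 0.70, and without both it was at 0.33. Atp2a2 was no longer called with DESeq2 (0.61), with limma-voom (0.51), without both libraries (0.23) and, with 1 library left out, ranged from 0.25 to 0.78. The cause was not tested. Libraries with the same number did not deviate together (r of -0.05, 0 and 0 for numbers 1, 3 and 4 over 11126 genes). These correlations cannot show whether libraries of the same number were handled together. The labels do not say what the numbers stand for, and the main fit did not treat the libraries as pairs. With the replicate block over the 6 libraries of these numbers Atp2a2 was at 0.56, and without the block over the same 6 at 0.68, neither called, and 7710 and 8117 genes were called. No ratio changed direction under 11 alternatives, but with 1 library left out the smallest permutation p is 0.0571, so these are values only. By SE of the log2 fold change, Atp2a2 (0.24) and Atp2a3 (0.24) were the least precise members.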

Other observations

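For the gene with the highest mean normalized count in each family, the 3 genes whose log2 normalized counts were most like it over the 8 libraries were looked up among 11344 genes, as a description. The 8 points share their libraries and fall into 2 ages. Nearest to Stim1 were Tcn2, Chchd3 and Mtmr1 (Pearson r 0.997 for each), and nearest to Orai2 were Ide, Xpr1 and Rab3gap1 (0.996 to 0.997). Xpr1, which exports phosphate from cells, had means of 5899 at P5 and 19342 at P12. Nearest to Itpr3 were Got1, Scaf8 and Acp2 (0.974 to 0.979). Nearest to Atp2a2 were Ppp1cb, Tnpo1 and Slc9b2 (0.988 to 0.994).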
